A study of Papio anubis with 588 samples.

Results

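Mitochondrial complex I, the NADH:ubiquinone oxidoreductase, takes electrons from NADH, passes them through a flavin and a chain of iron-sulphur clusters to ubiquinone, and pumps protons across the inner mitochondrial membrane. Its core subunits carry out these steps and have bacterial relatives, its accessory subunits stabilise and anchor the core, and assembly factors build the complex without staying in it. Most of its genes lie in the nucleus, and a few hydrophobic core subunits are encoded by mitochondrial DNA. The genes described here are the nuclear genes whose symbol starts with NDUFA, NDUFB, NDUFC, NDUFS, NDUFV or NDUFAF, which gave 46 of the 34178 genes in the count table. They were 6 core subunits, 4 accessory NDUFS and NDUFV subunits, 13 accessory NDUFA subunits (with the acyl carrier protein NDUFAB1), 11 NDUFB and 2 NDUFC subunits, the pair NDUFA4 and NDUFA4L2, and 8 assembly factors named NDUFAF1 to NDUFAF8. The first 5 of these groups, 36 genes, are called the subunits below. NDUFA4 is now assigned to complex IV, and NDUFA4L2 is its hypoxia-inducible paralogue, so neither is a structural subunit of complex I in spite of the symbol. The core subunit NDUFS7 and the 7 subunits of mitochondrial DNA were not analysed here.

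RNA was sequenced from biopsies of liver, muscle and adipose tissue of 99 olive baboons (Papio anubis) kept in captivity, a monkey in which the response of lipids to diet has long been studied. Each animal was sampled after 2 years on a diet high in cholesterol and fat (HCHF) and, before that switch, at 0 years on a diet low in both (LCLF). The 570 libraries used came from liver (87 HCHF and 95 LCLF), muscle (98 HCHF and 96 LCLF) and adipose tissue (95 HCHF and 99 LCLF). The total count per library ranged from 6.51 to 38.46 M (M for 1e6 counts) with a median of 19.5 M. No animal that stayed on the LCLF diet was analysed here, so the diet cannot be told apart from 2 years of age and calendar time. In bulk biopsies, fewer cells of a type and less RNA per cell cannot be told apart either. Livers and muscles carried their own markers. Hepatocyte genes took 5.23 to 23.6% of counts in HCHF and 14.6 to 26.6% in LCLF livers. Myocyte genes took 9.17 to 18.2% in HCHF and 9.2 to 19.8% in LCLF muscles. Adipocyte genes took 0.119 to 3.19% in HCHF and 0.374 to 3.97% in LCLF adipose tissue. The lowest of these lay below the median of 0.15% for adipocyte genes in HCHF muscles. A small number of libraries stood apart on such markers, 6 of liver from 5 animals, 4 of muscle from 3 animals and 3 of adipose tissue from 3 animals, and diet counts are given with and without these animals.

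The first comparison set the tissues side by side on the LCLF diet, within animals. Most complex I genes were highest in muscle, lower in liver and lowest in adipose tissue, as CPM (a gene's counts per 1e6 counts of a library) scaled over all libraries. In muscle 45 of the 46 genes were higher than in liver and 0 were lower (44.8% of all 14935 genes tested were higher and 48.6% lower), with a median log2 fold change of 1.47 over the 46 genes against -0.07 over all genes (n = 92 animals). Of the 46, 0 were lower at an unadjusted p under 0.05 either. Against adipose tissue, 45 were higher in muscle and 1 was lower (43.2% and 50.9% of 16101 genes), with a median of 2.52 against -0.16 (n = 96). In adipose tissue 4 genes were higher than in liver and 41 lower (46.5% and 46.4% of 16580 genes), with a median of -0.91 against -0.00 (n = 95). These calls rest on edgeR's quasi-likelihood F test, which kept the animal as blocking factor, with Benjamini-Hochberg adjusted p-values under 0.05 over all genes.

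Among the core subunits the step between muscle and liver was large for each gene. NDUFV1, which binds NADH and the flavin, had 247 to 666 CPM with a median of 412 in LCLF muscles, 55.5 to 262 CPM with a median of 80.2 in LCLF adipose tissue, and 106 to 214 CPM with a median of 151 in LCLF livers. Each of its muscle libraries was above every liver library on this diet, while the ranges of muscle and adipose tissue overlapped at their ends. Its muscle over adipose difference was 2.43 ± 0.05 on the log2 scale (SE). Among the larger differences of that kind were those of NDUFA3 (2.99 ± 0.07) and of the iron-sulphur subunit NDUFV2 (2.97 ± 0.07). Muscle over liver, the core subunits ranged from 1.39 for NDUFV1 to 2.13 for NDUFV2. The scaling moved these comparisons: with RLE size factors the median of all genes shifted by -0.14 for muscle over adipose tissue and by 0.11 for adipose tissue over liver.

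**Figure D1:**
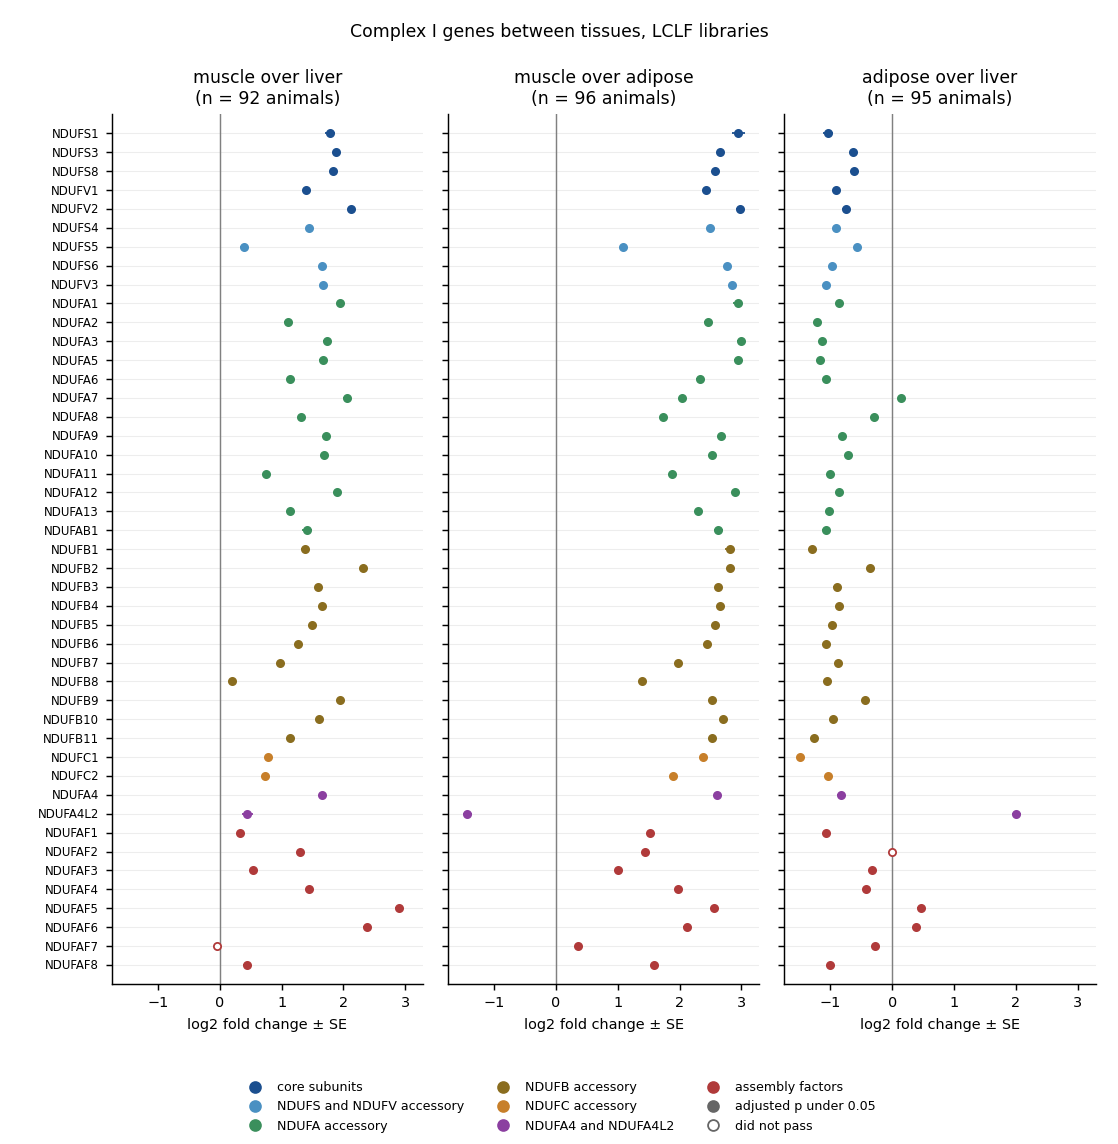
Log2 fold change (x axis, points, with SE as bars) of 45 of the 46 complex I genes (rows, coloured by role) between tissues on the LCLF diet, as muscle over liver, muscle over adipose tissue and adipose tissue over liver. Filled points passed an adjusted p of 0.05, and NDUFA4L2, at -1.44 in the middle panel and 2.01 in the right one, lies on the other side of 0 from most of the other genes.

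Each assembly factor was higher in muscle than in adipose tissue, from 0.35 ± 0.05 (NDUFAF7) to 2.56 ± 0.04 (NDUFAF5). Their values against liver varied more in sign and call. NDUFAF5, which hydroxylates a core subunit, was the gene most raised in muscle over liver (2.90 ± 0.06), and NDUFAF6 followed (2.38 ± 0.06). Both were also higher in adipose tissue than in liver, by 0.46 ± 0.07 and 0.38 ± 0.05. NDUFAF7, a methyltransferase that acts in assembly, was the single gene that did not differ between muscle and liver beyond the test (-0.05 ± 0.04, adjusted p = 0.195, edgeR), and NDUFAF2 did not between adipose tissue and liver (-0.00 ± 0.04, adjusted p = 0.918, edgeR). For NDUFAF1, NDUFAF2, NDUFAF3, NDUFAF4 and NDUFAF8 the muscle over liver values were 0.33, 1.30, 0.54, 1.44 and 0.44. With RLE size factors 1 gene was lower in muscle than in liver. Accessory subunits also spread widely, from 2.31 ± 0.05 for NDUFB2 to 0.20 ± 0.04 for NDUFB8 in muscle over liver.

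NDUFA4L2 ran against the rest. It had 7.39 to 32.2 CPM with a median of 17.6 in LCLF adipose tissue, 2.49 to 22.9 CPM with a median of 5.89 in LCLF muscles, and 1.46 to 10.8 CPM with a median of 4.31 in LCLF livers. Adipose tissue held the highest level, with overlapping ranges in all tissues. Its value was 2.01 ± 0.08 in adipose tissue over liver, the largest value there, -1.44 ± 0.07 in muscle over adipose tissue and 0.45 ± 0.09 in muscle over liver. NDUFA4 followed the subunits, with 1.66 ± 0.04 for muscle over liver and 2.60 ± 0.05 for muscle over adipose tissue. In adipose tissue over liver, NDUFC1 (-1.49 ± 0.03), NDUFB1 (-1.29 ± 0.05) and NDUFB11 (-1.27 ± 0.03) had the lowest values, and NDUFA7 was the remaining gene that was higher (0.14 ± 0.04).

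The second comparison asked which complex I genes differed in liver after 2 years of the HCHF diet. Of the 46 genes, 33 fell, by small amounts (27.1% of all 14919 genes tested fell) and 1 rose (22.3% of all genes rose), and 45 of the 46 fold changes were below 0. The median log2 fold change was -0.13 over the 46 genes and -0.03 over all genes (n = 84 animals, as for all diet values of liver). Of the 36 subunits 29 fell, and of the 8 assembly factors 3 fell. By group, 4 of 6 core subunits fell, 4 of 4 accessory NDUFS and NDUFV subunits, 9 of 13 NDUFA, 10 of 11 NDUFB and 2 of 2 NDUFC subunits.

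Of the core subunits, NDUFS8, an iron-sulphur subunit near the ubiquinone site, had 18.9 to 89.2 CPM with a median of 34.1 in HCHF livers, against 22.1 to 82.3 CPM with a median of 41.5 in LCLF livers. The ranges overlapped almost fully, and 23 of 84 animals were higher on the HCHF diet. Its within-animal log2 fold change was -0.26 ± 0.04 (adjusted p = 6.16e-07, edgeR). NDUFV1 fell by 0.10 ± 0.03 and NDUFS3 by 0.10 ± 0.03 on the log2 scale. The calls of NDUFV1 and NDUFS3 ended without the animal block (-0.09 for each), and NDUFV1 was at 0.03 in batch 1 alone. NDUFS1, the largest iron-sulphur subunit, was at -0.12 ± 0.06 (adjusted p = 0.0999, edgeR) and NDUFV2 at -0.13 ± 0.06 (adjusted p = 0.0509, edgeR), so neither passed, though limma-voom called NDUFV2 (adjusted p = 0.0157).

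Accessory subunits held the other large falls in liver. NDUFAB1, the mitochondrial acyl carrier protein that also serves lipoic acid synthesis, had the largest log2 fold change, -0.29 ± 0.06, and was higher in 19 of 84 animals. Without the animal block it did not pass (-0.30, adjusted p = 0.208, edgeR), and its level was close to 0 in 1 library batch, described further on. NDUFB10, a subunit of the membrane arm that faces the intermembrane space, had 39.8 to 111 CPM with a median of 67.4 in HCHF livers, against 52.2 to 139 CPM with a median of 78.5 in LCLF livers. Its log2 fold change was -0.24 ± 0.03, with 15 animals higher. NDUFA5 followed with -0.21 ± 0.03, with 12 animals higher, the fewest of the 46 genes, and NDUFB5 with -0.21 ± 0.03. In terms of fold, these falls lay between 13.3% for NDUFB5 and 18.0% for NDUFAB1.

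NDUFA4L2 was the single gene of the 46 that rose in liver. It had 1.89 to 13.4 CPM with a median of 5.08 in HCHF livers, against 1.46 to 10.8 CPM with a median of 4.31 in LCLF livers. The groups overlapped, and 61 of 84 animals were higher on the HCHF diet. The log2 fold change was 0.34 ± 0.07 (adjusted p = 1.08e-05, edgeR), a rise of 27.0%, and it was 0.33 in batch 2 alone, which passed, and 0.41 in batch 1 alone, which did not. NDUFA4 fell by 0.11 ± 0.04, a call that ended without the animals in doubt (-0.07) and without the animal block (-0.10). SHMT2, a gene that overlaps NDUFA4L2 in RefSeq, was at -0.09 ± 0.04 in liver and did not pass. NDUFA4L2 is known from other species in pericytes. Of the 10 tested markers of pericytes and smooth muscle, 8 rose in liver and 1 fell (22.3% and 27.1% of all genes). RGS5 was at 0.65 ± 0.06, ABCC9, the marker that fell, at -0.24 ± 0.04, and KCNJ8 (-0.09 ± 0.05) did not pass. Summed, the markers of this list took 0.0258 to 0.124% of counts in HCHF and 0.0232 to 0.0934% in LCLF livers. Their part in the rise of NDUFA4L2 was not tested. Of 12 tested hypoxia-inducible genes 4 rose and 5 fell in liver, with EGLN3, a prolyl hydroxylase, at 0.60 ± 0.06 and VEGFA, the vascular growth factor, at -0.17 ± 0.05.

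Among the assembly factors of liver, NDUFAF4, which binds NDUFAF3 early in assembly, fell by 0.20 ± 0.04, NDUFAF6 by 0.16 ± 0.04 and NDUFAF7 by 0.11 ± 0.04, the last of which did not pass without the animal block. The values of NDUFAF1 (-0.07), NDUFAF2 (-0.08), NDUFAF3 (-0.10), NDUFAF5 (-0.06) and NDUFAF8 (-0.09) did not pass. Of 11 further assembly factors and chaperones of complex I outside the NDUF symbols, 9 fell in liver and 1 in muscle (FOXRED1, -0.17 ± 0.05), while in adipose tissue 4 fell (ECSIT, FOXRED1, TIMMDC1 and TMEM186) and 1 rose (NUBPL, 0.19 ± 0.04). The shares of all genes that fell were 27.1% (liver), 7.91% (muscle) and 19.9% (adipose tissue).

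Other mitochondrial genes mostly fell in liver too, where 27.1% of all genes fell and 22.3% rose. Of 20 tested genes of complexes II to V, 17 fell, with a median of -0.17. Of 15 genes of mitochondrial import, fusion and matrix enzymes 13 fell, with VDAC1, the outer membrane channel, at -0.21 ± 0.03, and 1 rose, the citrate synthase CS, at 0.13 ± 0.03. Of 11 regulators 6 fell and 1 rose. PPARGC1A, the coactivator PGC-1alpha, fell by 0.53 ± 0.07, and TFB2M, a mitochondrial transcription factor, by 0.23 ± 0.04. PPRC1 (-0.18 ± 0.06), PPARA (-0.12 ± 0.05), the mitochondrial RNA polymerase POLRMT (-0.12 ± 0.03) and the nuclear receptor ESRRA (-0.11 ± 0.03) fell as well, while its relative ESRRG rose by 0.37 ± 0.13. TFAM (-0.05 ± 0.04), NRF1 (0.00 ± 0.04), GABPA (-0.05 ± 0.03) and PPARGC1B (-0.11 ± 0.06) did not pass.

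Cell type markers moved in the same livers, where 22.3% of all genes rose and 27.1% fell. Of 12 macrophage markers 11 rose, with a summed level of 0.0518 to 0.202% of counts in HCHF and 0.0255 to 0.144% in LCLF livers. All 11 endothelial markers rose, with 0.0105 to 0.047% in HCHF and 0.00459 to 0.0241% in LCLF livers. Of 11 hepatocyte markers 7 fell, with medians of 20.1% in HCHF and 20.7% in LCLF livers. All 11 lymphocyte markers rose, with 0.00338 to 0.0187% in HCHF and 0.000791 to 0.0127% in LCLF livers, as did 10 of 11 fibroblast and stellate cell markers, with 0.0207 to 0.268% and 0.0111 to 0.168%. All 4 tested neutrophil markers rose, with medians of 0.00109% in HCHF and 0.00035% in LCLF livers, and so did both tested erythroid markers, with medians of 0.00849% and 0.00346%. The part of these shifts in the falls of complex I genes was not tested. Without the 5 animals in doubt 29 of the 46 genes fell, beside 23.3% of all genes. Without the animal block 21 fell, beside 15% of all genes. In batch 1 alone (13 animals, limma-voom) 1 fell, beside 2.18% of all genes, with 34 of 45 values below 0, and in batch 2 alone (71 animals) 35 fell, beside 25.8% of all genes. When the 13 liver libraries that failed the authors' quality control were added, 10 of the 46 fell, beside 20.7% of all genes. The share of complex I genes that fell was then near that of all genes. Those 13 libraries held at most 0.917% hepatocyte counts, with a median of 0.0187%. Myocyte genes took 0.00461 to 15% of their counts, with a median of 4.1%. The myocyte medians of the livers used were 0.00317% (HCHF) and 0.00315% (LCLF). The part of this was not tested.

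**Figure D2:**
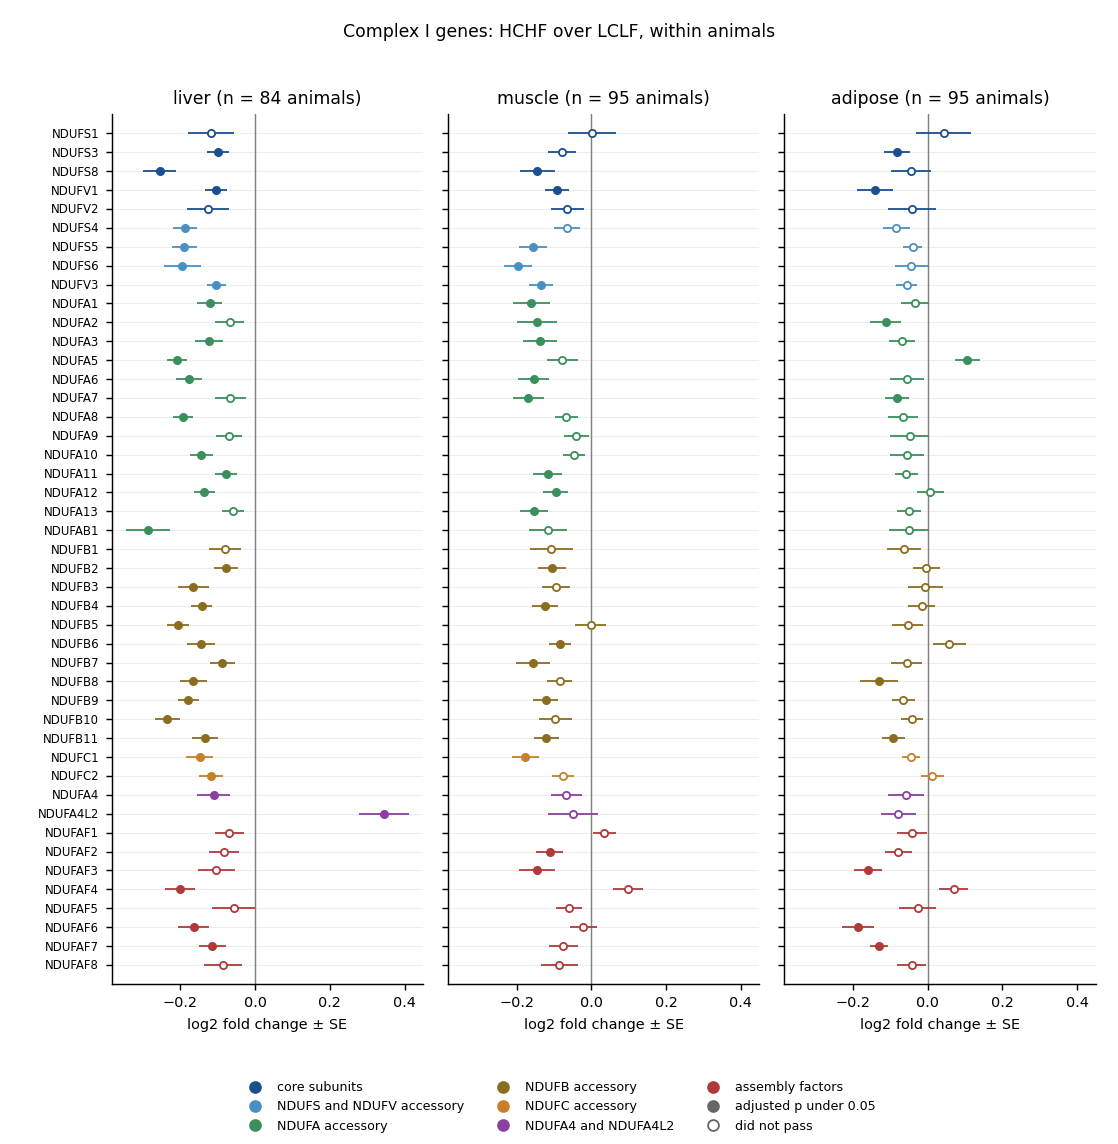
Log2 fold change of HCHF over LCLF within animals (x axis, points, with SE as bars) for 45 of the 46 complex I genes (rows, coloured by role) in liver (n = 84), muscle (n = 95) and adipose tissue (n = 95). Filled points passed an adjusted p of 0.05, and nearly all of them lie left of 0, with NDUFA4L2 in liver (0.34) and NDUFA5 in adipose tissue (0.11) to the right.

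The third comparison was the same in muscle. Of the 46 genes 23 fell (7.91% of all 13621 genes tested fell) and 23 did not pass, so 0 rose in edgeR (6.7% of all genes rose), with 1 above 0 at an unadjusted p under 0.05, and limma-voom and DESeq2 gave 0 risers too. The median log2 fold change was -0.10 over the 46 genes and 0.00 over all genes (n = 95 animals, as for all diet values of muscle). Of the 36 subunits 21 fell, and 43 of the 46 values were below 0.

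NDUFS6, a zinc-binding accessory subunit of the matrix arm, had the largest fall. It had 28.6 to 158 CPM with a median of 86.9 in HCHF muscles, against 36.1 to 170 CPM with a median of 98.2 in LCLF muscles. The ranges overlapped, 26 of 95 animals were higher on the HCHF diet, and the log2 fold change was -0.20 ± 0.04 (adjusted p = 0.000182, edgeR). NDUFC1, a small membrane subunit, had 36.0 to 150 CPM with a median of 79.6 in HCHF muscles, against 45.4 to 152 CPM with a median of 88.7 in LCLF muscles, and fell by 0.18 ± 0.04. NDUFA7 (-0.17 ± 0.04), NDUFA1 (-0.16 ± 0.05), NDUFB7 (-0.16 ± 0.05) and NDUFS5 (-0.16 ± 0.04) followed, all accessory subunits. NDUFS6 and NDUFC1 passed without the animal block too, and NDUFA7, NDUFA1 and NDUFS5 did not.

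Of the core subunits in muscle, NDUFS8 fell by 0.14 ± 0.05 and NDUFV1 by 0.09 ± 0.03 on the log2 scale, and the call of NDUFV1 ended without the animals in doubt. Neither passed without the animal block or in batch 2 alone. NDUFS3 (-0.08 ± 0.04) and NDUFV2 (-0.06 ± 0.04) did not pass. NDUFS1 had 28.6 to 576 CPM with a median of 299 in HCHF muscles, against 33.4 to 495 CPM with a median of 297 in LCLF muscles. Its log2 fold change was 0.00 ± 0.06, with 43 of 95 animals higher, and its levels spread over more than an order of magnitude on each diet. Of the assembly factors NDUFAF3 fell by 0.15 ± 0.05 and NDUFAF2 by 0.11 ± 0.04, and neither passed without the animal block. NDUFAF4 was at 0.10 ± 0.04 (adjusted p = 0.0857, edgeR), the highest value of the 46 genes, and without the animals in doubt it passed (0.11, adjusted p = 0.0448). NDUFAF1 (0.03), NDUFAF5 (-0.06), NDUFAF6 (-0.02), NDUFAF7 (-0.08) and NDUFAF8 (-0.09) did not pass, nor did NDUFA4 (-0.07) and NDUFA4L2 (-0.05).

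The wider mitochondrial lists did not all follow in muscle, where 7.91% of all genes fell and 6.7% rose. Of 20 genes of complexes II to V 7 fell, with a median of -0.08. Of the 15 import, fusion and matrix genes 1 rose, the fusion GTPase OPA1 (0.12 ± 0.04), and their median was 0.01. Of 11 regulators 2 rose, TFB2M (0.14 ± 0.04) and ESRRG (0.22 ± 0.07), and PPARGC1A was at -0.07 ± 0.07. ESRRA (0.04), GABPA (0.06), NRF1 (-0.06), POLRMT (-0.03), PPARA (-0.13), PPARGC1B (0.09), PPRC1 (-0.02) and TFAM (0.04) did not pass in muscle.

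Fibre and vessel markers moved in muscle, where 7.91% of all genes fell and 6.7% rose. Of 12 fast fibre markers 7 fell, with a summed level of 5.12 to 22.6% of counts in HCHF and 8.6 to 22.0% in LCLF muscles. The 8 slow fibre markers had a median of -0.01, with 0.26 to 4.57% in HCHF and 0.349 to 3.54% in LCLF muscles. Of 11 endothelial markers 8 fell, with 0.0106 to 0.0913% in HCHF and 0.0115 to 0.0927% in LCLF muscles, and 6 of 9 tested macrophage markers rose. The part of these shifts in the falls of complex I genes was not tested. Without the 3 animals in doubt 18 of the 46 genes fell, beside 7.93% of all genes. Without the animal block 2 fell, beside 0.976% of all genes, and in batch 2 alone (79 animals) 9 fell, beside 4.2% of all genes. In batch 1 alone (16 animals, limma-voom) 0 fell, beside 0.0244% of all genes, where 43 of 45 values were below 0. Of these 45 genes 16 fell at an unadjusted p under 0.05, beside 6.1% of all genes. The changes of the subunits went together over these animals (median r = 0.50), so the values are not independent of each other. The median was -0.12 over the 45 genes tested in batch 1 (limma-voom) and -0.09 over the 46 genes in batch 2 (edgeR).

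The fourth comparison was that of adipose tissue, where the count of complex I genes that fell was near that of all genes. Of the 46 genes 9 fell (19.9% of all 16827 genes tested fell), which is 19.6%, and 1 rose (18.7% of all genes rose). The median log2 fold change was -0.05 over the 46 genes and -0.00 over all genes (n = 95 animals, as for all diet values of adipose tissue). Of the 36 subunits 6 fell and 1 rose, and of the 8 assembly factors 3 fell.

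The 2 largest falls were in assembly factors, followed by the core subunit NDUFV1. NDUFAF6, a protein related to phytoene synthases, had 4.82 to 16.6 CPM with a median of 7.76 on the HCHF diet, against 5.29 to 14.6 CPM with a median of 9.03 on the LCLF diet, and fell by 0.19 ± 0.04 on the log2 scale (adjusted p = 0.000339, edgeR). NDUFAF3 had 11.7 to 47.6 CPM with a median of 24.5 on the HCHF diet, against 15.1 to 53.2 CPM with a median of 27.0 on the LCLF diet, and fell by 0.16 ± 0.04. NDUFAF7 fell by 0.13 ± 0.02, with 27 of 95 animals higher, a call that ended without the animal block. The ranges of the diets overlapped for each of these genes. NDUFAF1 (-0.04), NDUFAF2 (-0.08), NDUFAF4 (0.07), NDUFAF5 (-0.03) and NDUFAF8 (-0.04) did not pass.

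Of the core subunits in adipose tissue, NDUFV1 fell by 0.14 ± 0.05 and NDUFS3 by 0.08 ± 0.03, and the call of NDUFS3 ended with limma-voom (adjusted p = 0.051) and without the animals in doubt. NDUFS1 (0.04 ± 0.07), NDUFS8 (-0.05 ± 0.05) and NDUFV2 (-0.04 ± 0.06) did not pass. NDUFB8 fell by 0.13 ± 0.05, a call lost once the animals in doubt were left out. Neither NDUFV1 nor NDUFB8 passed without the animal block. NDUFA5, a peripheral accessory subunit, was the gene that rose. It had 37.9 to 113 CPM with a median of 62.2 on the HCHF diet, against 29.1 to 120 CPM with a median of 54.5 on the LCLF diet. Its ranges overlapped, 58 of 95 animals were higher, and the log2 fold change was 0.11 ± 0.03 (adjusted p = 0.00729, edgeR), or 0.09 without the animal block, which did not pass. NDUFA4 (-0.06 ± 0.05) and NDUFA4L2 (-0.08 ± 0.05) did not pass.

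**Figure D3:**
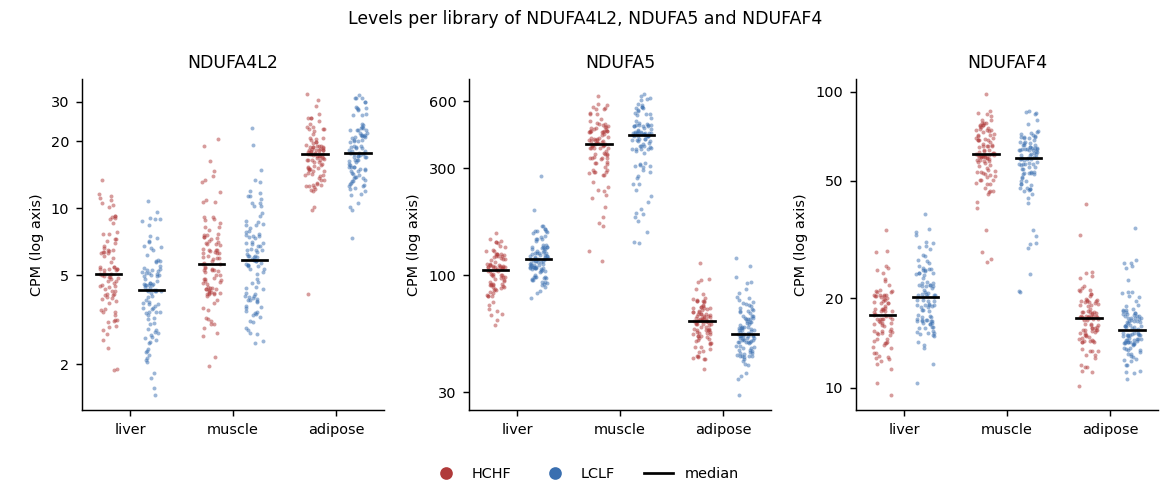
CPM per library (y axis, log scale) of NDUFA4L2, NDUFA5 and NDUFAF4 in liver, muscle and adipose tissue, with HCHF (red) beside LCLF (blue) and the median as a bar. The medians of NDUFA5 are 106 (HCHF) and 118 (LCLF) in liver and 62.2 and 54.5 in adipose tissue, and those of NDUFAF4 are 17.6 and 20.3 in liver and 61.4 and 59.6 in muscle.

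Of 20 genes of complexes II to V 4 fell in adipose tissue, with a median of -0.06, and of 15 import, fusion and matrix genes 7 fell. Beside these and the lists that follow, 19.9% of all genes fell and 18.7% rose in adipose tissue. The count of complexes II to V was thus near that of all genes. Of 10 tested regulators 3 fell, POLRMT (-0.14 ± 0.03), PPRC1 (-0.15 ± 0.05) and ESRRA (-0.11 ± 0.04), and TFAM, which packages and transcribes mitochondrial DNA, rose by 0.07 ± 0.02. PPARGC1A (-0.17 ± 0.09), PPARA (-0.03), PPARGC1B (-0.06), NRF1 (-0.04), GABPA (-0.03) and TFB2M (-0.00) did not pass. Macrophage markers rose, 11 of 12, with a summed level of 0.0281 to 0.325% of counts on the HCHF and 0.00945 to 0.33% on the LCLF diet. Fibroblast markers rose, 9 of 10 tested, with 0.716 to 2.53% and 0.555 to 3.55%. Of 10 adipocyte markers 1 rose and 2 fell, with 0.119 to 3.19% on the HCHF and 0.374 to 3.97% on the LCLF diet. All 3 tested erythroid markers rose, with 0.0125 to 3.06% on the HCHF and 0.00972 to 0.735% on the LCLF diet, and all 4 tested neutrophil markers rose, with medians of 0.00573% and 0.0036%. The part of these shifts was not tested. Without the 3 animals in doubt 7 of the 46 genes fell, beside 19.6% of all genes. Without the animal block 2 fell, beside 10.9% of all genes, and in batch 2 alone 10, beside 18.7%. In batch 1 alone 0 fell (limma-voom), beside 0.00641%, and 0 at an unadjusted p under 0.05, beside 5.1%. With the left-out libraries added 3 fell, beside 18.2% of all genes. The 3 left-out adipose libraries held 0.0184 to 19.6% hepatocyte counts, with a median of 19.2%, and the part of this was not tested.

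Read over the tissues, 18 genes fell in both liver and muscle, which is 54.5% of the 33 that fell in liver and 78.3% of the 23 that fell in muscle. Of all 46 genes 71.7% fell in liver and 50% in muscle, so these shares lie close to those of the whole set. Of the 18 genes that fell in both liver and muscle, 2 fell in adipose tissue as well. A further 10 fell in liver with no call elsewhere, and 7 genes had no call in any tissue. Whether a call in one tissue and not in another is a difference was tested directly, by limma on the difference between tissues of the within-animal changes of log2 CPM. Of the 46 genes, 4 differed between muscle and liver (n = 80 animals), 9 between muscle and adipose tissue (n = 91) and 11 between adipose tissue and liver (n = 82). For most of the 46 genes the test did not separate the tissues, which does not show that they respond alike.

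Between muscle and liver, NDUFAF4 differed most upward, by 0.27 ± 0.06 (adjusted p = 0.000201, limma). Its mean change was 0.10 in muscle and -0.20 in liver. Such mean changes, here and for the other contrasts, are over all animals with both diets in that tissue. The differences are over animals with both diets in both tissues, so the means need not subtract to them. NDUFB5 was at -0.00 in muscle and -0.21 in liver (difference 0.16 ± 0.05), and NDUFA8, another subunit of the intermembrane space side, at -0.07 and -0.19 (0.12 ± 0.04), a call that ended without the animals in doubt (0.10). NDUFA4L2 was the gene with the opposite sign, at -0.05 in muscle and 0.34 in liver (-0.34 ± 0.10). In all, 3 genes had a higher and 1 a lower change in muscle than in liver (16.4% and 16.6% of all 12553 genes).

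Between muscle and adipose tissue, 9 genes had a lower change in muscle and 0 a higher one by limma (5.72% and 7.12% of 13190 genes), with 1 higher at an unadjusted p under 0.05. The largest among the called genes were NDUFA5, at -0.07 in muscle and 0.11 in adipose tissue (-0.19 ± 0.05), NDUFS6, at -0.20 and -0.04 (-0.19 ± 0.05), and NDUFB6, at -0.08 and 0.06 (-0.16 ± 0.05), which did not pass in batch 2 alone (-0.13). Between adipose tissue and liver, 10 genes had a higher change in adipose tissue and 1 a lower one (17.2% and 20.5% of 14102 genes). NDUFA5 was at 0.11 in adipose tissue and -0.21 in liver (0.29 ± 0.04, adjusted p = 3.47e-08, limma), the clearest difference between tissues among the 46 genes. GPR63, which overlaps NDUFAF4 in RefSeq, rose in adipose tissue by 0.39 ± 0.11. NDUFAF4 was at 0.07 and -0.20 (0.26 ± 0.06), NDUFAB1 at -0.04 and -0.31 (0.24 ± 0.09, no longer called with a prior count of 0.5), and NDUFA4L2 at -0.08 and 0.34 (-0.44 ± 0.09). These 3 contrasts share each tissue's libraries and are not independent of each other. In batch 1 alone (13 to 16 animals) the 3 contrasts gave 0 calls among the 45 genes tested, by limma. At an unadjusted p under 0.05 there were 2 lower for muscle minus liver, 2 lower for muscle minus adipose tissue, and 3 higher and 1 lower for adipose tissue minus liver. Of all genes, 8.65%, 3.47% and 11.3% were lower at that p in these contrasts.

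The subunits also varied between animals. The mean change over the 36 subunits in an animal, HCHF minus LCLF in log2 CPM, ranged from -0.62 to 0.58 in liver with a median of -0.14, from -0.97 to 0.62 in muscle with a median of -0.08, and from -1.18 to 0.84 in adipose tissue with a median of -0.04. It was below 0 in 64 of 84 livers, 61 of 95 muscles and 53 of 95 adipose samples. The spread between animals was widest in adipose tissue (SD 0.34), where 13 animals had a lower value of every subunit on the HCHF diet and 6 a higher value of every subunit. In liver these counts were 3 and 0 with an SD of 0.21, and in muscle 7 and 3 with an SD of 0.27. Adipose tissue thus held the smallest median and the largest single changes. Of the 78 animals with both diets in every tissue, the mean was below 0 in all 3 tissues in 30 animals, in 2 tissues in 23, in 1 tissue in 19 and in none in 6.

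**Figure D4:**
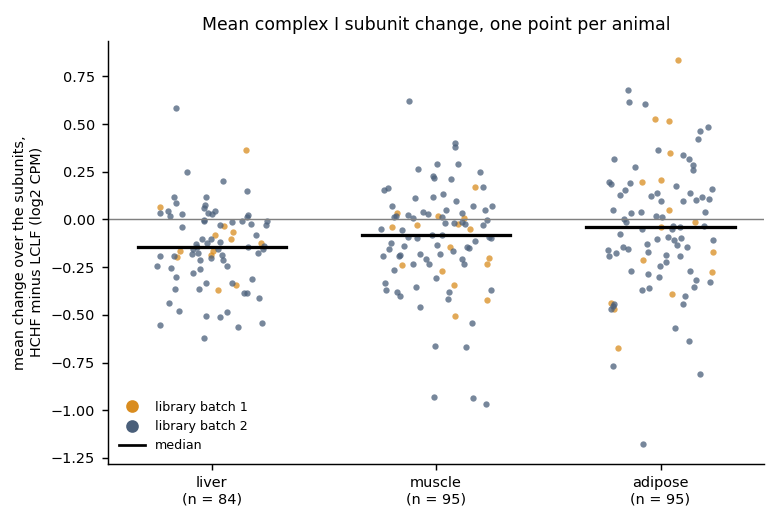
Mean change over the 36 complex I subunits (y axis, HCHF minus LCLF in log2 CPM), with 1 point per animal, coloured by library batch, and the median as a bar, in liver, muscle and adipose tissue. Points below 0 are animals with lower mean expression on the HCHF diet, and the points of adipose tissue reach farthest in both directions, from -1.18 to 0.84.

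The changes of the subunits went together within a tissue. Over the 630 pairs of subunits the median correlation of their changes across animals was 0.49 for liver, 0.63 for muscle tissue and 0.76 for adipose tissue, against -0.01, -0.02 and -0.02 between a subunit and the genes outside the set. These are descriptions over the same 84, 95 and 95 animals, whose libraries share depth and scaling, and the pairs share genes. The comparison was with all other genes, not with pairs inside another gene set. It does not show that such covariation is particular to complex I. No pair in adipose tissue had a correlation below 0. In liver 34 pairs did and in muscle 62, and NDUFS1 was in 15 and 22 of these. EEF1B2, a translation factor gene that overlaps NDUFS1 in RefSeq, was at -0.12 ± 0.03 in muscle, where it fell, and at -0.07 ± 0.04 in liver, where it did not pass. By the likeness of its change to the mean of the other subunits, NDUFA13 was the closest in liver (r = 0.87 over 84 animals), NDUFA12 in muscle (r = 0.90 over 95) and NDUFA6 in adipose tissue (r = 0.95 over 95). The farthest were NDUFAF7 in liver (0.09), NDUFA5 in muscle (-0.10) and NDUFA4L2 in adipose tissue (0.30).

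Some levels depended on the library batch. In batch 1, 16 animals were sequenced single-end from unstranded libraries, and in batch 2, 83 were sequenced paired-end from stranded ones, with all libraries of an animal in 1 batch. NDUFAB1 averaged 0.40 ± 0.26 CPM (SD, n = 16) in HCHF muscles of batch 1 and 34.4 ± 9.47 CPM (n = 82) in those of batch 2, against 0.42 ± 0.24 CPM (n = 16) and 36.9 ± 9.95 CPM (n = 80) in LCLF muscles. In LCLF libraries the batches did not overlap for NDUFAB1 in any tissue, for NDUFV2 in liver and muscle, or for NDUFA3 in muscle. For NDUFAB1, batch 1 minus batch 2 was on average -6.07 on the log2 scale in muscle, -5.20 in adipose tissue and -4.55 in liver. This difference was -2.13, -1.94 and -2.16 for NDUFV2, and -1.45, -1.19 and -1.04 for NDUFA3. The median size of this difference over the 46 genes was 0.28 in muscle, 0.17 in adipose tissue and 0.12 in liver. These differences and overlaps were not set beside those of all genes, and the batches were inferred from the same libraries. The diet was compared within animals, so each change stays within 1 batch, but levels of NDUFAB1 and NDUFV2 over all animals mix the batches. NDUFAB1 was listed at 0 in 5 HCHF and 2 LCLF livers and was not tested in batch 1 alone.

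**Figure D5:**
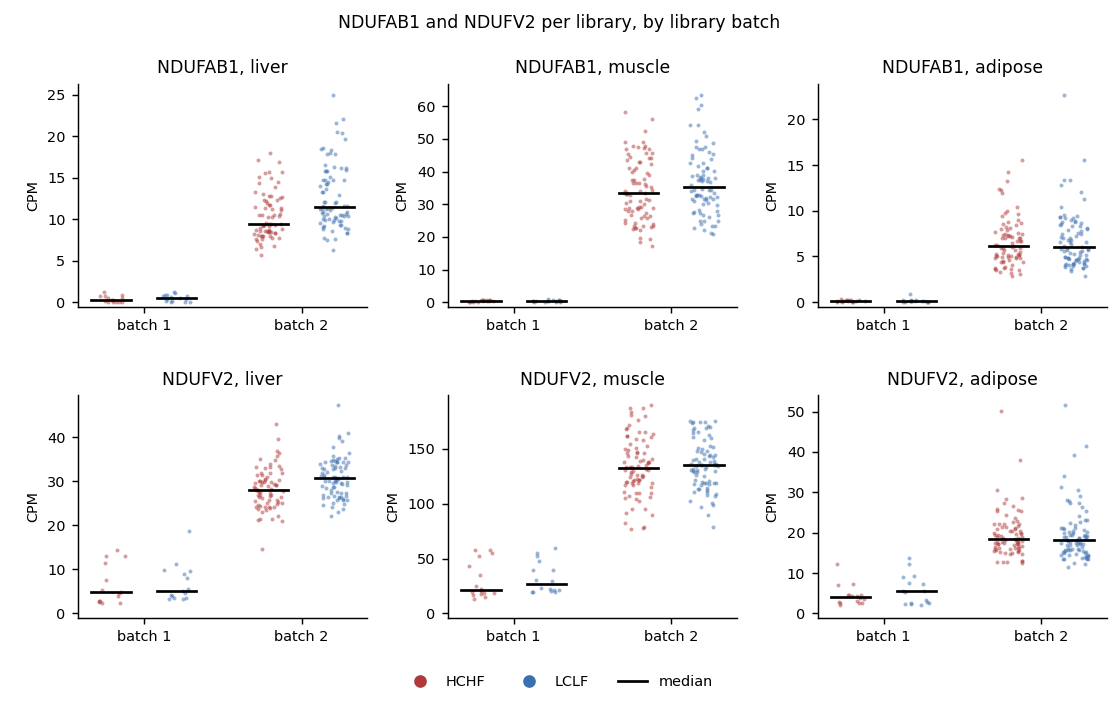
CPM per library (y axis, from 0) of NDUFAB1 (top) and NDUFV2 (bottom) in liver, muscle and adipose tissue, for batches 1 and 2, with HCHF (red) left of LCLF (blue) and the median as a bar. All batch 1 libraries of NDUFAB1 lie near 0, while those of batch 2 reach 58.1 CPM in HCHF and 63.6 CPM in LCLF muscles.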

How the data were processed

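RNA-seq counts per gene were used as the authors deposited them, for 570 libraries that passed their quality control. Per the submitters' processing notes, reads were checked with FastQC, aligned with STAR 2.7.7a and counted with featureCounts. The build, the annotation and the use of strand in counting were not stated in the labels or the file headers. The deposited counts of all 588 libraries also hold these 570 libraries, and those 570 columns were not used.

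Genes were chosen by symbol, and the members, gene lists and tests were chosen with earlier results of these data known. Named with values were the core subunits, the assembly factors, NDUFA4 and NDUFA4L2, the 5 largest falls and rises among called genes in each tissue, each gene called against the direction of most, the 3 largest called differences in each direction between tissues, and the mitochondrial regulators. The values of 1 core subunit enter the counts and medians and are not reported here. OPA1, CS, VDAC1, EGLN3, VEGFA, RGS5, ABCC9 and KCNJ8 were picked once their values had been seen. Libraries were scaled by TMM (edgeR 4.0.16, R 4.3.3) and genes kept by filterByExpr with a minimum count of 10. The diet and tissue comparisons used edgeR's quasi-likelihood F test, blocked by animal, with a single shared dispersion, and n counts animals with both libraries. Differences between tissues used limma 3.58.1 on within-animal changes of log2 CPM with a prior count of 2. Calls are Benjamini-Hochberg adjusted p-values under 0.05 over all genes tested. Levels are CPM scaled over all 570 libraries, whereas fold changes come from fits within each comparison. CPM are not divided by gene length, so levels were not compared between genes.

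The animal is named in the labels, which pairs the libraries. Libraries of the same animal deviated together, with a median correlation of 0.511 for livers (over 0.1 in 84 of 84 animals), 0.478 for muscles (90 of 95) and 0.495 for adipose tissue (91 of 95). Per the labels' protocols, 16 animals were sequenced with unstranded single-end reads of 50 bases and 83 with stranded paired-end reads. Which animals these were was inferred from the largest gap on the first axis of the libraries. The median total count was 10.95 M (M for 1e6 counts) in batch 1 and 20.1 M in batch 2.

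Of the 46 genes 21 overlap another gene in RefSeq's Panubis1.0 annotation, and reads of such pairs may not be told apart. Alternatives were RLE size factors, other filters on low counts, limma-voom, DESeq2 1.42.0 without the block, edgeR without the block, each batch alone, and all 588 libraries. Leaving out the animals in doubt was chosen after seeing the data. The scripts were tested on simulated data.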

Additional observations from a re-analysis of the deposited data

Results flagged for a closer look

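The diet effect differed between tissues, by limma's test of the difference itself, for 4 of the 46 genes between muscle and liver, 9 between muscle and adipose tissue and 11 between adipose tissue and liver. For muscle minus liver the differences were 0.27 for NDUFAF4, 0.16 for NDUFB5, 0.12 for NDUFA8 and -0.34 for NDUFA4L2 on the log2 scale. For muscle minus adipose tissue the largest among the called genes were -0.19 for NDUFA5, -0.19 for NDUFS6 and -0.16 for NDUFB6. For adipose tissue minus liver the largest among the called genes, with the 1 lower first, were -0.44 for NDUFA4L2, 0.29 for NDUFA5, 0.26 for NDUFAF4 and 0.24 for NDUFAB1. Of all genes, 16.4% were higher and 16.6% lower for muscle minus liver, 7.12% and 5.72% for muscle minus adipose tissue, and 17.2% and 20.5% for adipose tissue minus liver.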

How the results depend on the processing

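Without the replicate block for the animal, the genes that fell numbered 21 (liver), 2 (muscle) and 2 (adipose tissue) with edgeR and likewise 21, 2 and 2 with DESeq2, against 33, 23 and 9 with it, and the gene that rose in adipose tissue was no longer called (0). The medians without the block were -0.11, -0.09 and -0.06. In batch 1 alone (limma-voom) 1 gene fell in liver, none of the 45 (0) in muscle, and 0 in adipose tissue, and 0 rose in liver and adipose tissue. At an unadjusted p under 0.05, 8, 16 and 0 fell in that batch, beside 10.4%, 6.1% and 5.1% of all genes. NDUFV1 in liver changed sign there (0.0347). Batch 1 alone has fewer animals, and gave 0 calls in each direction for the differences between tissues. In batch 2 alone 9 genes fell in muscle, 6 had a higher change in muscle than in liver, and 4 a lower one in muscle than in adipose tissue. With all 588 libraries falls numbered 10 (liver), 15 (muscle) and 3 (adipose tissue), beside 20.7%, 6.46% and 18.2% of all genes. The left-out liver libraries held at most 0.917% hepatocyte counts, and a median of 4.1% myocyte counts. The left-out adipose libraries held 0.0184 to 19.6% hepatocyte counts. The part of this in the change was not tested. Without the animals in doubt 1 gene rose in muscle and 2 had a lower change in muscle than in liver, beside 7.27% and 16.2% of all genes. With RLE size factors 1 gene was lower in muscle than in liver. The cause of the other shifts was not tested. Under RLE, limma-voom and the other filters the falls numbered 33 to 35 (liver), 16 to 23 (muscle) and 8 to 10 (adipose tissue).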
